A study of Homo sapiens with 24 samples.

Results

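The glycolysis and lactate handling genes are the enzymes and transporters that bring glucose into the cell, split it to pyruvate, turn pyruvate into lactate, or hold pyruvate back from the mitochondria. The list held 33 genes, picked for their function but with earlier results of these data known. Of these, 27 were analysed, each with 1 core transcript cluster, the unit by which this exon array reports a gene, that the platform annotation assigns to that gene alone, among 14232 genes handled in the same way. GAPDH, PGAM1, PDK2, SLC2A3, SLC16A1 and SLC16A3 were not analysed here. The samples were MUTZ-5 and MHH-CALL4, human leukemia lines of precursor B cell origin. Cells of each line received 500 nM JQ1, an inhibitor that keeps BET bromodomain proteins off acetylated chromatin, or its solvent DMSO, for 8 hours. The 4 groups were MUTZ-5 with JQ1, MUTZ-5 with DMSO, MHH-CALL4 with JQ1 and MHH-CALL4 with DMSO, with 3 samples each and 1 array per sample. Both lines grew in the same RPMI medium with serum. Nothing in the labels tells whether replicates came from separate cultures, so the p-values rest on a spread that may be technical.

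Glycolysis traps glucose as a phosphate with hexokinase, commits it with phosphofructokinase, splits it with aldolase and recovers energy with phosphoglycerate kinase and pyruvate kinase. Lactate dehydrogenase then regenerates the NAD that the pathway uses, and pyruvate dehydrogenase kinases close the route from pyruvate into the mitochondrial citrate cycle. Most steps have several isozymes from separate genes, and proliferating leukemia cells are known for high glycolysis, which MYC promotes and for which HK2 and LDHA are textbook MYC targets.

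MYC binds the E-box CACGTG, so this motif was searched in the 250 bases before each member's start in the RefSeq promoter table (GRCh38.p14), which held 26 of the 27 members (not PFKFB2). The motif reads the same on both strands, and no other motif was searched. It occurred in at least 1 start's window of HK2 and LDHA, which fell in both lines, of ALDOC and PFKFB3, which rose in at least 1 line, and of ALDOA, which passed the test in neither line. The first 4 windows are printed because they hold the motif upstream of members that moved in opposite directions, 5′ to 3′ on the gene's own strand with the motif in capitals.
HK2: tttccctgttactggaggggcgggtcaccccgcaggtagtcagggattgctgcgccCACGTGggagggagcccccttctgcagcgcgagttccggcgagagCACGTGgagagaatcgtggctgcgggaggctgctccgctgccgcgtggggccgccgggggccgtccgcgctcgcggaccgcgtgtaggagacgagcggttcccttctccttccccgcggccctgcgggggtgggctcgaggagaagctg
LDHA: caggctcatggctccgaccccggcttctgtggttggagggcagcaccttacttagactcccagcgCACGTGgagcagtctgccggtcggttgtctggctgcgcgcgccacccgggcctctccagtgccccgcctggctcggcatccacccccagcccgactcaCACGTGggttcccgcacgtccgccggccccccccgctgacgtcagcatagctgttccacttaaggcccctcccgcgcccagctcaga
ALDOC: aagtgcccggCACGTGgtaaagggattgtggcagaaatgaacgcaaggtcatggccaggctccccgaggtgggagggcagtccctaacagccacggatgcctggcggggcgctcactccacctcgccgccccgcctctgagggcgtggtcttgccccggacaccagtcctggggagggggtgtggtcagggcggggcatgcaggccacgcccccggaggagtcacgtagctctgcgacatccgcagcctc
PFKFB3: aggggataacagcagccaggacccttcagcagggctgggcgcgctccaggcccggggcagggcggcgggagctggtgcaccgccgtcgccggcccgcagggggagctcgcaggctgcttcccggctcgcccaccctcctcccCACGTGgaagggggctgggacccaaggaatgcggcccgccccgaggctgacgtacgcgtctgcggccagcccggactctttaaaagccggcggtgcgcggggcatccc
The HK2 window lies at chr2:74834920-74835169 (plus strand, before one of the starts the table lists), and its 2 motifs begin 194 and 149 bases before the start. The LDHA window is chr11:18394313-18394562 (plus strand, before 1 of the listed starts), with motifs that begin 185 and 87 bases before the start. The ALDOC window is chr17:28576896-28577145 (minus strand), with a motif 240 bases before the start. The PFKFB3 window is chr10:6202682-6202931 (plus strand, before one of the listed starts), with a motif 108 bases before the start. By call, the motif was present for 2 of 9 members lower in both lines, 2 of 5 members higher in at least 1 line, and 1 of 11 members not called in either line. PGK1, the one member lower in a single line, had no match. A gene counted if any of its windows held the motif. For comparison, 10.0% of the 11386 tested genes with a window held it, as did 15.5% of the 1256 tested genes called lower in both lines. By window, the motif was in 5 of 52 member windows (9.62%) and in 6.34% of all 35116 windows. A match in these letters is a description and not a binding site.

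Levels are RMA values in log2 units. The median of all genes was between 8.46 and 8.57 in every array. Array pairs within a group correlated at 0.9917 to 0.9977. Replicate 3 of MUTZ-5 DMSO differed from its companions with an SD of 0.251 and 0.278 over genes, against 0.149 between those companions. Replicate 3 of MHH-CALL4 JQ1 differed with 0.269 and 0.218, against 0.174, and replicate 3 of MUTZ-5 JQ1 with 0.221 and 0.198, against 0.138. The labelled cell type was checked with 13 B cell precursor markers, whose median level was 11.93 in MUTZ-5 JQ1, 12.19 in MUTZ-5 DMSO, 12.13 in MHH-CALL4 JQ1 and 12.33 in MHH-CALL4 DMSO. RAG1 averaged between 7.46 and 7.72 in the 4 groups, and CD34 read 6.98 and 6.93 in MHH-CALL4 with JQ1 and DMSO. Under JQ1, 7 of these 13 markers fell and 2 rose in MUTZ-5, against 13.0% and 9.06% of all genes, and 5 fell and 0 rose in MHH-CALL4, against 17.5% and 11.0% (limma, as below). The largest changes were in VPREB1, a surrogate light chain gene (log2 difference -1.09 in MUTZ-5 and -1.03 in MHH-CALL4), VPREB3 (-1.01 and -0.11), CD34 (-0.95 and 0.04) and CD79A, a B cell receptor subunit (-0.64 and -0.57). VPREB3 and CD34 did not pass in MHH-CALL4, and the 2 rises in MUTZ-5 were BLNK (0.34) and RAG1 (0.26). Of 19 markers of T and NK cells, myeloid, erythroid and stromal cells, the median level was 7.16, 7.08, 7.16 and 7.11 in the same order of groups. NKG7 and PDGFRB were the highest of that list, at 9.02 and 8.99 in MUTZ-5 JQ1, 9.66 and 9.64 in MUTZ-5 DMSO, 9.51 and 9.0 in MHH-CALL4 JQ1, and 10.47 and 9.85 in MHH-CALL4 DMSO, and both fell in each line. LYZ, a myeloid gene, averaged 5.80 ± 0.017 under JQ1 and 6.63 ± 0.17 under DMSO in MHH-CALL4 and fell there (limma adjusted p = 7.2e-05), and no other gene of that list was called under JQ1. The part of these markers in the results below was not tested. Each value is an average over a culture, so fewer cells of a kind and less RNA per cell cannot be told apart.

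JQ1 lowered more of these genes than it raised in each line. In MUTZ-5, 9 of 27 members fell, 3 rose and 15 did not pass the test (limma, Benjamini-Hochberg adjusted over all 14232 genes, threshold 0.05). The 12 calls are 44.4% of the members, against 22.0% of all genes called in that line, 13.0% lower and 9.06% higher. In MHH-CALL4, 10 members fell, 4 rose and 13 did not pass, which is 51.9% of the members, against 28.5% of all genes, 17.5% lower and 11.0% higher. Because the list was chosen with earlier results of these data known, these shares are a description and not a test of the set. The median log2 difference of the members was 0.00 in MUTZ-5 and 0.01 in MHH-CALL4, and that of all genes was 0.01 in each line. Members at or above the median level of all genes numbered 20, of which 13 (65%) were called in each line when only genes at that level were tested, against 42.8% of such genes in MUTZ-5 and 47.2% in MHH-CALL4. Without replicate 3 of MUTZ-5 DMSO, 5 members rose and 8 fell in MUTZ-5. Leaving out replicate 3 of MUTZ-5 JQ1 gave 3 higher and 8 lower in that line. Without replicate 3 of MHH-CALL4 JQ1, 3 members rose and 10 fell in MHH-CALL4.

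The 9 members lower in both lines were HK2, GPI, PFKM, PFKP, ENO1, ENO3, LDHA, LDHB and PDK1, and 10.6% of all genes were lower in both. HK1 and ALDOC were higher in both lines, as were 5.74% of all genes. No member was called in opposite directions, which 0.148% of all genes were. PGK1 was called lower in MHH-CALL4 alone, PFKFB3 and SLC2A1 higher in MHH-CALL4 alone, and ENO2 higher in MUTZ-5 alone. The sign of the difference was the same in both lines for 25 of the 27 members. The share of all genes with the same sign was not measured, so this count has no background. It includes uncalled members with small differences, such as HKDC1 (0.002 in MUTZ-5 and 0.020 in MHH-CALL4). The 3 JQ1 arrays of a line lay entirely above its 3 DMSO arrays for 6 members in MUTZ-5 and 6 in MHH-CALL4, and entirely below them for 9 and 11. Of all genes, 13.8% lay entirely above and 18.7% below in MUTZ-5, and 19.7% above and 24.1% below in MHH-CALL4.

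**Figure D1:**
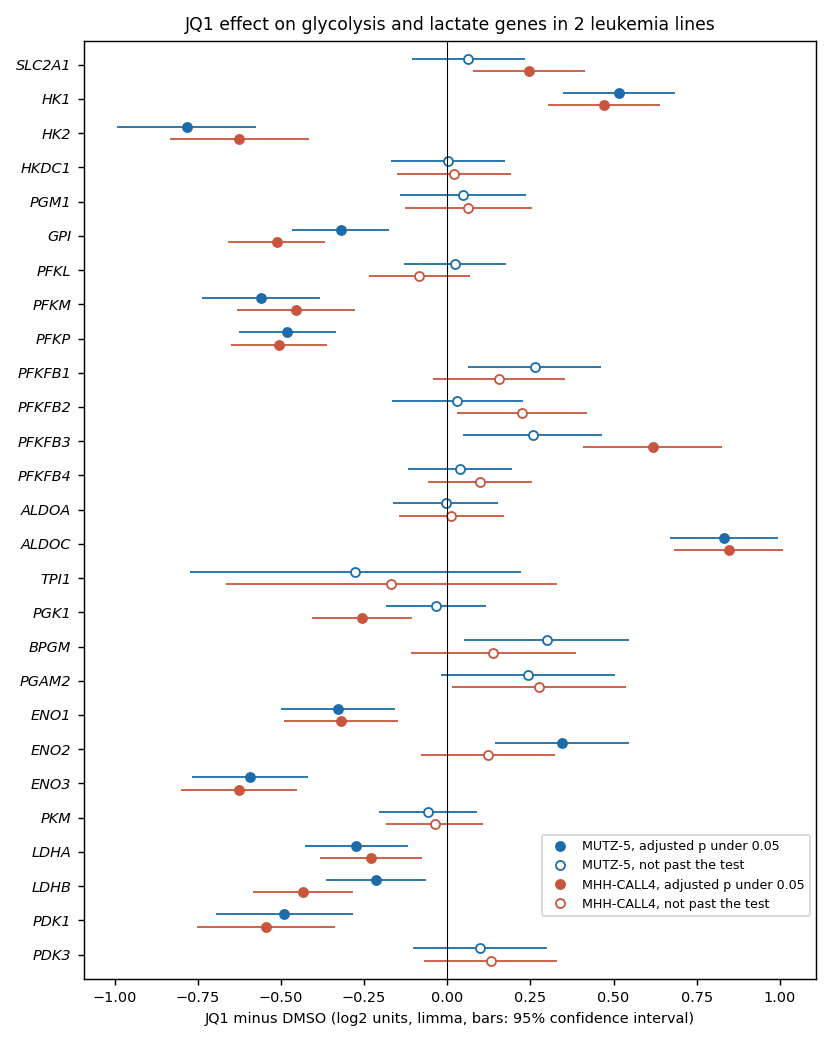
Log2 difference JQ1 minus DMSO (x axis) of the 27 members, ordered along the pathway from glucose entry at the top, in MUTZ-5 (blue, upper point) and MHH-CALL4 (red, lower point). Bars are 95% confidence intervals from limma and filled points passed the adjusted p threshold of 0.05; the 9 genes with both points filled left of 0 include HK2, ENO3 and PDK1, and HK1 and ALDOC have both points filled right of 0.

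Glucose entry and trapping showed opposite changes of the hexokinases. HK2, the inducible hexokinase that docks on mitochondria and is abundant in many tumors, had 9.0, 9.06 and 9.11 log2 units under JQ1 in MUTZ-5, against 9.83, 9.65 and 10.03 under DMSO. In MHH-CALL4 it had 8.67, 8.5 and 8.69 under JQ1, against 9.34, 9.17 and 9.22 under DMSO. Every JQ1 array lay below every DMSO array of its line. HK2 was 1.72-fold lower in MUTZ-5 (log2 difference -0.78, SE 0.097, limma adjusted p = 5.9e-05) and fell by 0.63 on the log2 scale in MHH-CALL4 (SE 0.097, adjusted p = 0.00029).

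HK1, the hexokinase expressed in most tissues, moved the other way. Its levels were 9.27, 9.17 and 9.17 under JQ1 in MUTZ-5, against 8.69, 8.56 and 8.81 under DMSO. The MHH-CALL4 arrays read 8.73, 8.77 and 8.85 under JQ1, against 8.28, 8.39 and 8.27 under DMSO. The JQ1 arrays were the higher ones in both lines with no overlap. HK1 rose 1.43-fold in MUTZ-5 (log2 difference 0.52, SE 0.078, limma adjusted p = 0.00031) and by 0.47 in MHH-CALL4 (SE 0.078, adjusted p = 0.00049). HKDC1, a hexokinase-like gene, averaged close to 7 in every group, below the median of all genes, with log2 differences of 0.00 in MUTZ-5 and 0.02 in MHH-CALL4.

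SLC2A1 encodes GLUT1, the glucose transporter of many dividing cells. It averaged 11.20 ± 0.016 under JQ1 and 11.13 ± 0.12 under DMSO in MUTZ-5 (SD, n = 3 each), a difference that did not pass the test. In MHH-CALL4 it averaged 11.75 ± 0.071 under JQ1 and 11.50 ± 0.076 under DMSO, and rose by 0.25 (SE 0.078, limma adjusted p = 0.032). This call was lost in 4 of 20 alternatives, each of which left out 1 array of MHH-CALL4, with an adjusted p of up to 0.106. PGM1, which links glycogen to glucose 6-phosphate, differed by 0.05 in MUTZ-5 and 0.06 in MHH-CALL4 and passed in neither.

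GPI converts glucose 6-phosphate to fructose 6-phosphate. It had 11.55, 11.55 and 11.63 under JQ1 in MUTZ-5, against 11.89, 11.82 and 11.98 under DMSO. The levels in MHH-CALL4 were 10.86, 10.85 and 10.87 under JQ1, against 11.33, 11.43 and 11.36 under DMSO. The drop exceeded the spread within groups in both lines, and the 3 MHH-CALL4 JQ1 arrays lay within 0.02 log2 units of each other. GPI fell by 0.32 in MUTZ-5 (SE 0.067, limma adjusted p = 0.0034) and by 0.51 in MHH-CALL4 (SE 0.067, adjusted p = 7.4e-05).

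The phosphofructokinase subunits, which form the tetramer of the committed step, differed in their response. PFKM, the subunit named for muscle, had 10.17, 10.02 and 10.17 under JQ1 in MUTZ-5, against 10.69, 10.53 and 10.82 under DMSO. For MHH-CALL4 the PFKM levels were 10.22, 10.21 and 10.22 under JQ1, against 10.60, 10.74 and 10.67 under DMSO. All JQ1 arrays stood below all DMSO arrays, by 0.56 in the mean in MUTZ-5 and 0.46 in MHH-CALL4. The limma differences were -0.56 (SE 0.082, adjusted p = 0.00023) and -0.46 (SE 0.082, adjusted p = 0.00094).

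PFKP, the subunit named for platelets, had 10.14, 10.13 and 10.10 under JQ1 in MUTZ-5, against 10.65, 10.50 and 10.66 under DMSO. Its MHH-CALL4 levels were 10.05, 10.01 and 10.06 under JQ1, against 10.54, 10.58 and 10.52 under DMSO. PFKP thus read lower on all 6 JQ1 arrays than on any DMSO array of either line. It fell by 0.48 in MUTZ-5 (SE 0.067, limma adjusted p = 0.00016) and by 0.51 in MHH-CALL4 (SE 0.067, adjusted p = 7.9e-05). PFKL, the liver-named subunit, differed by 0.02 in MUTZ-5 and -0.08 in MHH-CALL4 and passed in neither line, with 95% confidence intervals of -0.13 to 0.18 and -0.24 to 0.07.

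The PFKFB enzymes make and break fructose 2,6-bisphosphate, the activator of phosphofructokinase. PFKFB3, an isoform that strongly favors its synthesis, had 9.34, 9.20 and 9.31 under JQ1 in MUTZ-5, against 9.14, 8.78 and 9.15 under DMSO. In MHH-CALL4 the PFKFB3 levels were 10.49, 10.48 and 10.51 under JQ1, against 9.81, 9.98 and 9.85 under DMSO. JQ1 arrays were higher without overlap in both lines, and DMSO replicate 2 of MUTZ-5 was the lowest of all 12 arrays. PFKFB3 rose 1.54-fold in MHH-CALL4 (log2 difference 0.62, SE 0.097, limma adjusted p = 0.00031), whereas in MUTZ-5 the difference of 0.26 did not pass (SE 0.097, adjusted p = 0.078). The MUTZ-5 difference passed in 4 of 20 alternatives, among them median centring with an adjusted p of 0.0194 and leaving out DMSO replicate 3 of MUTZ-5 with 0.0395.

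PFKFB4, an isoform common in testis and tumors, differed by 0.04 in MUTZ-5 and 0.10 in MHH-CALL4. The liver-named isoform PFKFB1 and the heart-named PFKFB2 read below the median of all genes, with group means of 6.52 to 6.94 for PFKFB1 and 6.08 to 6.31 for PFKFB2. PFKFB1 differed by 0.26 in MUTZ-5 (limma adjusted p = 0.059) and 0.16 in MHH-CALL4, and PFKFB2 by 0.03 and 0.23 (adjusted p = 0.083 in MHH-CALL4). PFKFB3 in MHH-CALL4 was the one call among the 4 PFKFB genes, but PFKFB1 in MUTZ-5 passed in 4 alternatives (adjusted p = 0.0303 to 0.0498) and PFKFB2 in MHH-CALL4 in 2 (adjusted p = 0.0298 and 0.0458).

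Aldolase splits fructose 1,6-bisphosphate. ALDOC, the isozyme best known from brain, showed the largest increase of the 27 members in each line. It had 10.41, 10.42 and 10.49 under JQ1 in MUTZ-5, against 9.53, 9.54 and 9.76 under DMSO. The MHH-CALL4 levels were 10.08, 10.05 and 10.06 under JQ1, against 9.21, 9.28 and 9.16 under DMSO. The lowest JQ1 array exceeded the highest DMSO array of its line by more than the whole spread within either group. ALDOC rose 1.78-fold in MUTZ-5 (log2 difference 0.83, SE 0.076, limma adjusted p = 4.6e-06) and 1.80-fold in MHH-CALL4 (log2 difference 0.85, SE 0.076, adjusted p = 2.7e-06). ALDOA, the widely expressed aldolase, averaged 12.65 ± 0.10 under JQ1 and 12.66 ± 0.076 under DMSO in MUTZ-5, and 12.59 ± 0.041 and 12.58 ± 0.023 in MHH-CALL4, with 95% confidence intervals of the difference of -0.16 to 0.15 and -0.15 to 0.17.

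TPI1 interconverts the triose phosphates. Its core cluster read low, at 5.18 to 6.38 over the 12 arrays, and it had the widest interval of the members, -0.77 to 0.22 in MUTZ-5 and -0.67 to 0.33 in MHH-CALL4. The mean of the TPI1 summary was 5.86 in the core form and 7.59 in the extended form of the same arrays. In every other analysed member the extended mean was below the core mean. The core mean of TPI1 stood at percentile 11.2 of all genes, and whether this cluster reports TPI1 was not tested. A TPI1 change of the size seen for HK2 in MHH-CALL4 lies inside both intervals given for TPI1 and was not detectable here.

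**Figure D2:**
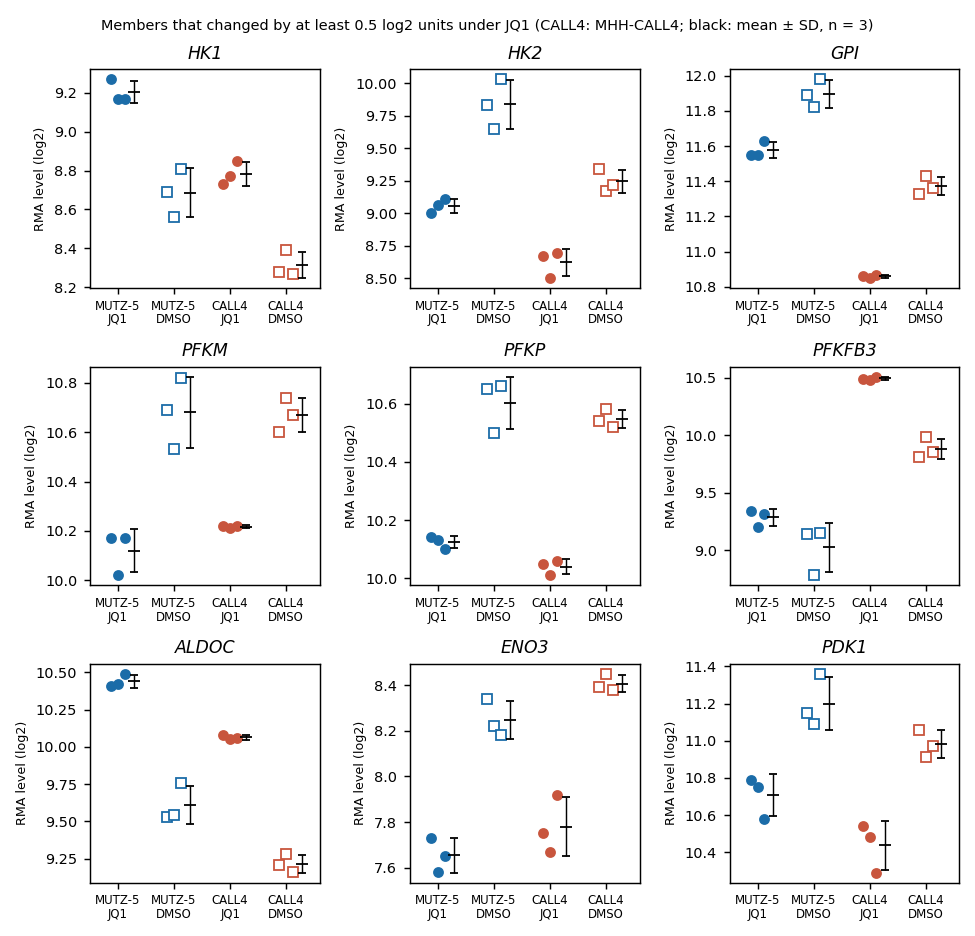
RMA level in log2 units (y axes, each on its own range, not starting at 0) of the 9 members whose change under JQ1 passed the test and reached 0.5 log2 units in at least 1 line, for every array. Filled circles are JQ1 and open squares DMSO, MUTZ-5 is blue and MHH-CALL4 red, and black bars are mean ± SD (n = 3); in all 9 panels the JQ1 and DMSO points of a line do not overlap, PFKFB3 in MUTZ-5 included.

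Below the triose step, PGK1, ENO1, LDHA and LDHB fell by less than 0.5 log2 units where they passed the test. PGK1, which makes the first ATP of the pathway, averaged 14.03 ± 0.057 under JQ1 and 14.06 ± 0.097 under DMSO in MUTZ-5 and did not pass. In MHH-CALL4 it averaged 13.88 ± 0.025 under JQ1 and 14.13 ± 0.024 under DMSO and fell by 0.26 (SE 0.070, limma adjusted p = 0.015). PGAM2, the muscle phosphoglycerate mutase, had differences of 0.24 in MUTZ-5 and 0.28 in MHH-CALL4 and passed in neither. Without DMSO replicate 3 of MHH-CALL4, the PGAM2 difference in MHH-CALL4 was 0.42 and passed (adjusted p = 0.0141). BPGM, which makes 2,3-bisphosphoglycerate, had 0.30 (adjusted p = 0.085) and 0.14. BPGM passed in MUTZ-5 in 4 of the 20 alternatives, for example at 0.0133 without DMSO replicate 3 of MUTZ-5.

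The enolases went different ways. ENO3, the muscle enolase, had 7.73, 7.58 and 7.65 under JQ1 in MUTZ-5, against 8.34, 8.22 and 8.18 under DMSO. ENO3 levels in MHH-CALL4 were 7.75, 7.67 and 7.92 under JQ1, against 8.39, 8.45 and 8.38 under DMSO. The groups did not overlap in either line, and all group means were below the median of all genes. Signal over background is not known at such levels. ENO3 fell by 0.59 in MUTZ-5 (SE 0.080, limma adjusted p = 0.00013) and by 0.63 in MHH-CALL4 (SE 0.080, adjusted p = 6.1e-05). ENO1, the widely expressed enolase, averaged 13.25 ± 0.034 under JQ1 and 13.58 ± 0.13 under DMSO in MUTZ-5, and 13.18 ± 0.065 and 13.50 ± 0.069 in MHH-CALL4. It fell by 0.33 in MUTZ-5 (adjusted p = 0.0086) and by 0.32 in MHH-CALL4 (adjusted p = 0.0088). ENO2, the neuronal enolase, averaged 9.28 ± 0.14 under JQ1 and 8.94 ± 0.17 under DMSO in MUTZ-5 and rose by 0.34 (adjusted p = 0.016), a call lost in 5 of 20 alternatives. In MHH-CALL4 ENO2 averaged 8.84 ± 0.029 and 8.72 ± 0.025, a difference of 0.12 that did not pass.

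PKM, the pyruvate kinase of most tissues and tumors, averaged 12.93 ± 0.067 under JQ1 and 12.99 ± 0.049 under DMSO in MUTZ-5, and 12.87 ± 0.061 and 12.91 ± 0.026 in MHH-CALL4. Neither difference passed, and the 95% confidence intervals were -0.20 to 0.09 and -0.18 to 0.11. The core value covers the whole gene, so the PKM1 and PKM2 splice forms were not told apart.

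At the lactate step, LDHA, the subunit that favors lactate formation, averaged 14.11 ± 0.092 under JQ1 and 14.38 ± 0.026 under DMSO in MUTZ-5, and 14.14 ± 0.076 and 14.37 ± 0.030 in MHH-CALL4. It fell by 0.27 in MUTZ-5 (SE 0.071, limma adjusted p = 0.013) and by 0.23 in MHH-CALL4 (SE 0.071, adjusted p = 0.028). These calls were lost in 5 and 8 of 20 alternatives, and over the alternatives the MHH-CALL4 difference ranged from -0.40 to -0.17. LDHB, the subunit that favors lactate use, averaged 12.23 ± 0.035 under JQ1 and 12.44 ± 0.050 under DMSO in MUTZ-5, and 12.72 ± 0.052 and 13.15 ± 0.087 in MHH-CALL4. It fell by 0.43 in MHH-CALL4 (SE 0.070, adjusted p = 0.0004) and by 0.21 in MUTZ-5 (SE 0.070, adjusted p = 0.042), and the MUTZ-5 call was lost in 12 of 20 alternatives, any 1 MUTZ-5 array left out among them.

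Pyruvate dehydrogenase kinases block the entry of pyruvate into the mitochondrial cycle. PDK1 had 10.79, 10.75 and 10.58 under JQ1 in MUTZ-5, against 11.15, 11.09 and 11.36 under DMSO. PDK1 levels in MHH-CALL4 were 10.54, 10.48 and 10.29 under JQ1, against 11.06, 10.91 and 10.97 under DMSO. All JQ1 arrays lay below the DMSO arrays of their line, and JQ1 replicate 3 was the lowest in each. PDK1 fell by 0.49 in MUTZ-5 (SE 0.096, limma adjusted p = 0.0021) and by 0.54 in MHH-CALL4 (SE 0.096, adjusted p = 0.00078). PDK3, an isoform with high activity, differed by 0.10 in MUTZ-5 and 0.13 in MHH-CALL4 and passed in neither.

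Isozyme switches were measured as the log2 ratio of 2 genes within each array. Such a ratio also moves when either gene changes alone. These tests therefore reuse the single-gene changes given above and are not separate evidence of a switch. A ratio of levels of different probes has no meaning by itself, so changes of the ratio are given. Of 16 pairs listed, 12 had both genes, and each was tested with an exact permutation test that exchanged JQ1 and DMSO within each line (two-sided, 400 permutations, smallest possible p 0.005), adjusted over the 12 pairs. Several pairs share a gene and all share the arrays. The ratio changed under JQ1 in 10 of 12 pairs. How often ratios of other gene pairs changed was not measured, so this count has no background share and is not a trait of isozymes.

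The largest shift was that of HK2 over HK1, with -1.30 log2 units in MUTZ-5 and -1.10 in MHH-CALL4 (mean of the lines -1.20, exact permutation test adjusted p = 0.0075). ALDOC over ALDOA rose by 0.84 in MUTZ-5 and 0.83 in MHH-CALL4 (adjusted p = 0.0075 by the same exact permutation test). ALDOA itself differed by -0.004 in MUTZ-5 and 0.013 in MHH-CALL4, so this ratio followed ALDOC. PDK3 over PDK1 rose by 0.59 and 0.68, and ENO2 over ENO1 by 0.67 and 0.44, each with the same adjusted p. In all 4 of these pairs the JQ1 and DMSO arrays of a line did not overlap.

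Within phosphofructokinase, PFKM over PFKL changed by -0.58 in MUTZ-5 and -0.37 in MHH-CALL4, and PFKP over PFKL by -0.50 and -0.42, both at the smallest p. PFKP over PFKM changed by 0.08 and -0.05 (exact permutation test p = 0.82), so a shift between these subunits was not detected. HKDC1 over HK1 changed by -0.51 and -0.45, and PFKFB4 over PFKFB3 by -0.22 and -0.52. HKDC1 itself differed by 0.002 in MUTZ-5 and 0.020 in MHH-CALL4, so its ratio followed HK1. PFKFB3 over PFKFB2 changed by 0.23 and 0.39 (adjusted p = 0.018, exact permutation test), with overlap in MUTZ-5. That call was lost with extended summaries (change of 0.22, adjusted p = 0.0733) and without JQ1 replicate 1 of MUTZ-5 (adjusted p = 0.054). ENO3 over ENO1 changed by -0.27 and -0.31 (adjusted p = 0.01333, exact permutation test), also with overlap in MUTZ-5, and with the extended summaries this change was -0.04 with an adjusted p of 0.638. LDHA over LDHB changed by -0.06 in MUTZ-5 and 0.20 in MHH-CALL4 (exact permutation test p = 0.27, adjusted 0.2945), and whether the lines differ in this change was not tested.

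**Figure D3:**
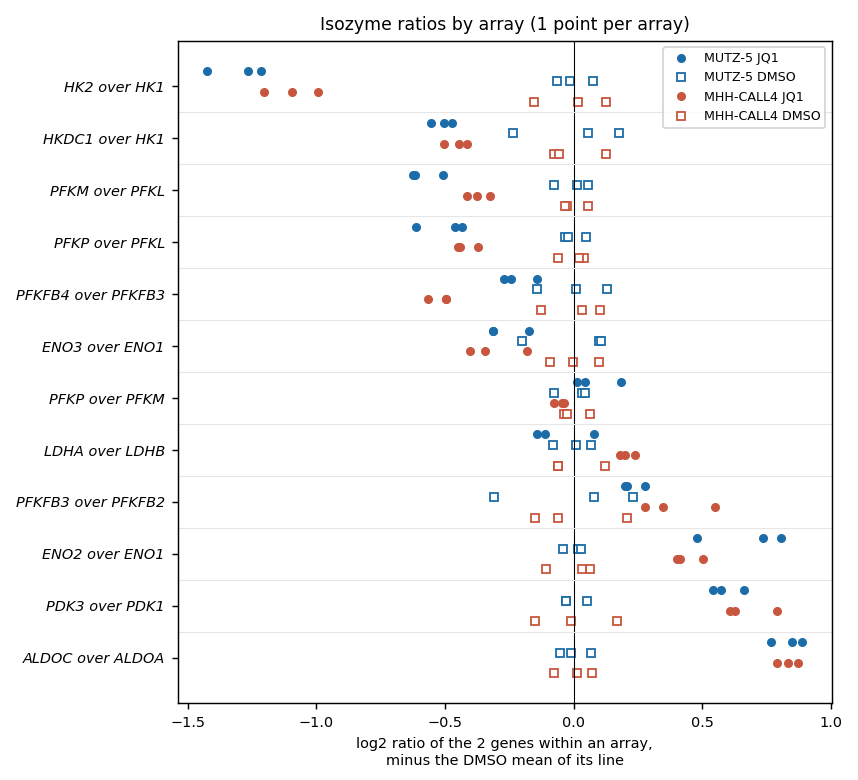
Log2 ratio of 2 genes within each array, minus the mean of the DMSO arrays of the same line (x axis, log2 units), for 12 isozyme pairs, 1 point per array. Filled circles are JQ1 and open squares DMSO, MUTZ-5 is blue and MHH-CALL4 red; HK2 over HK1 lies farthest left under JQ1, near -1.30 in MUTZ-5 and -1.10 in MHH-CALL4, and ALDOC over ALDOA farthest right, near 0.84 and 0.83.

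The JQ1 effect was then compared between the lines. In the test of the difference of effects, MUTZ-5 minus MHH-CALL4, limma called 0 of 27 members, against 1.53% of all genes. At an unadjusted p under 0.05 there were 3 members, PFKFB3, PGK1 and LDHB, against 10.5% of all genes, so a count of 3 in 27 is near the background, and the moderated test with trend and robust variance called 0. The difference of effects was -0.36 for PFKFB3 (95% confidence interval -0.66 to -0.07, adjusted p = 0.32), 0.22 for PGK1 (0.01 to 0.44, adjusted p = 0.44) and 0.22 for LDHB (0.01 to 0.43, adjusted p = 0.45). Without DMSO replicate 2 of MUTZ-5, the lowest PFKFB3 array, PFKFB3 was called, with a difference of effects of -0.48 (adjusted p = 0.0451). Over all members the intervals ran from -0.81 to 0.60, and both ends belong to TPI1. Other intervals were narrower, for example -0.40 to 0.34 for PGAM2 and -0.23 to 0.19 for PKM. Differences between the lines inside a gene's interval may go unseen. For ALDOC and HK1, the 2 members that rose in both lines, the differences of effects were -0.01 (SE 0.11) and 0.04 (SE 0.11).

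Under DMSO the lines differed in 7 of 27 members, which is 25.9%, against 23.4% of all genes. In MUTZ-5, 4 members were higher and 3 lower, against 11.9% and 11.5% of all genes. HK2 was higher in MUTZ-5 by 0.60 (SE 0.097, limma adjusted p = 0.00038) and GPI by 0.53 (limma adjusted p = 4.7e-05). ALDOC was higher there by 0.39 (limma adjusted p = 0.0015) and HK1 by 0.37 (limma adjusted p = 0.0028). PFKFB3 was lower by 0.85 log2 units, at 9.03 ± 0.21 in MUTZ-5 and 9.88 ± 0.087 in MHH-CALL4 (adjusted p = 1.4e-05). LDHB averaged 12.44 ± 0.050 in MUTZ-5 and 13.15 ± 0.087 in MHH-CALL4, a log2 difference of -0.71 (adjusted p = 3.6e-06). SLC2A1 averaged 11.13 ± 0.12 in MUTZ-5 and 11.50 ± 0.076 in MHH-CALL4, a difference of -0.37 (adjusted p = 0.0033). LDHA differed by 0.01 (SE 0.071) and PKM by 0.08 (SE 0.068), and neither passed.

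The arrays of the lines did not overlap under DMSO for 6 members higher in MUTZ-5 and 5 lower in MUTZ-5, against 20.0% and 16.1% of all genes. Isozyme ratios differed between the lines in 8 of 12 pairs, averaged over treatments. The share among other gene pairs was not measured. PFKFB3 over PFKFB2 was lower in MUTZ-5 by 0.93 log2 units (log2 difference -0.93, exact permutation test adjusted p = 0.008571). PFKFB4 over PFKFB3 was higher in MUTZ-5 by 0.83 and LDHA over LDHB by 0.59, with the same adjusted p. The LDHA over LDHB difference accompanied LDHB levels that differed and LDHA levels that did not pass the test. HK2 over HK1, the pair with the largest JQ1 change, differed by 0.12 between the lines (exact permutation test adjusted p = 0.132).

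**Figure D4:**
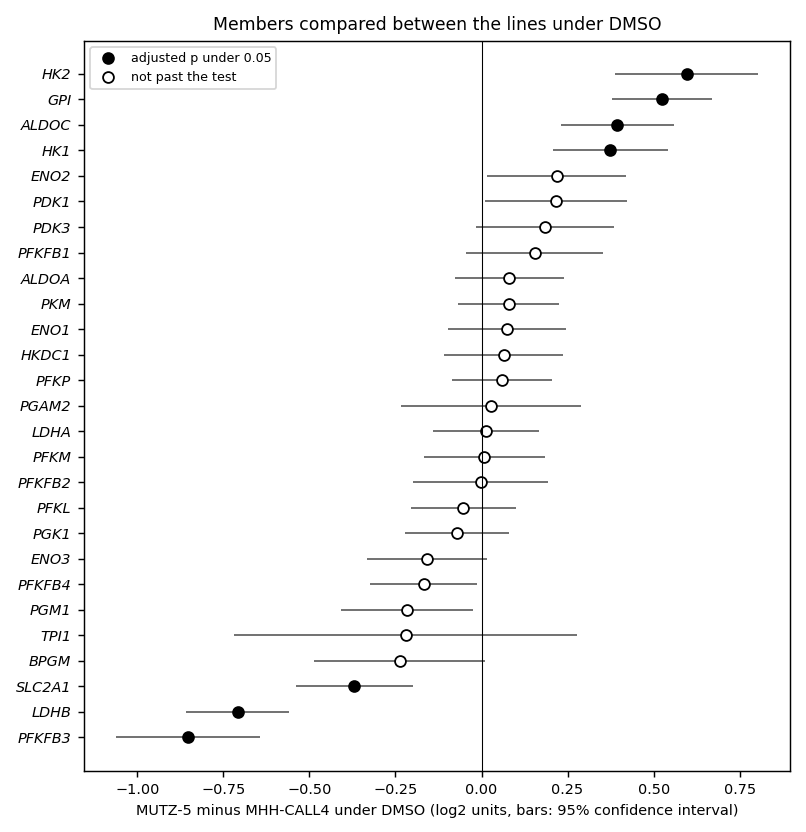
Log2 difference MUTZ-5 minus MHH-CALL4 under DMSO (x axis) for the 27 members, sorted by size, with 95% confidence intervals from limma. Filled points passed the adjusted p threshold of 0.05; HK2, GPI, ALDOC and HK1 lie right of 0 and SLC2A1, LDHB and PFKFB3 left of 0.

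Genes next to the pathway were followed in lists written from general knowledge. Of 10 measured genes of pyruvate entry into mitochondria, 2 rose and 2 fell in MUTZ-5, and 2 rose and 3 fell in MHH-CALL4. Of all genes, 9.06% rose and 13.0% fell in MUTZ-5, and 11.0% rose and 17.5% fell in MHH-CALL4. Over the 20 alternatives the count higher in MHH-CALL4 was 1 to 4 and the count lower in MUTZ-5 was 1 to 3. DLAT, the acetyltransferase subunit of pyruvate dehydrogenase, averaged 9.63 ± 0.058 under JQ1 and 10.16 ± 0.086 under DMSO in MUTZ-5, and 10.01 ± 0.039 and 10.55 ± 0.11 in MHH-CALL4, and fell by 0.53 in both (limma adjusted p = 0.00023 and 0.00018). MPC1, a subunit of the mitochondrial pyruvate carrier, rose by 0.50 in MUTZ-5 (adjusted p = 0.0019) and 0.41 in MHH-CALL4 (adjusted p = 0.0061). PDP1, the phosphatase that reactivates pyruvate dehydrogenase, rose by 0.48 (adjusted p = 0.0016) and 0.26 (adjusted p = 0.044). PDHA1, the catalytic subunit, differed by -0.21 in MUTZ-5 (adjusted p = 0.071) and fell by 0.36 in MHH-CALL4 (adjusted p = 0.0038).

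Of 24 other glucose transport and glycolysis genes measured, 2 rose and 0 fell in MUTZ-5, and 3 rose and 1 fell in MHH-CALL4. The counts of increases are near the shares of all genes, 9.06% in MUTZ-5 and 11.0% in MHH-CALL4. Over the 20 alternatives the increases numbered 0 to 3 in MUTZ-5 and 1 to 4 in MHH-CALL4. Decreases were fewer than the shares of all genes, which were 13.0% in MUTZ-5 and 17.5% in MHH-CALL4. They numbered 0 in MUTZ-5 and 1 to 3 in MHH-CALL4 over the alternatives. SLC2A5, the fructose transporter GLUT5, read 11.61, 11.54 and 11.51 under JQ1 in MUTZ-5, against 11.54, 11.36 and 11.69 under DMSO. In MHH-CALL4 it read 9.12, 8.96 and 8.93 under JQ1, against 10.08, 10.02 and 9.99 under DMSO. SLC2A5 thus fell by 1.03 in MHH-CALL4 (limma adjusted p = 1.7e-06) and differed by 0.02 in MUTZ-5, and the effects differed by 1.05 (adjusted p = 0.00042). SLC2A13, the myo-inositol transporter HMIT, rose by 0.66 in MUTZ-5 (adjusted p = 0.00051) and differed by -0.12 in MHH-CALL4, with a difference of effects of 0.78 (adjusted p = 0.017). PGM2L1, a glucose 1,6-bisphosphate synthase, rose by 0.61 in MUTZ-5 (adjusted p = 0.0009) and differed by 0.16 in MHH-CALL4. PGK2, the testis phosphoglycerate kinase, averaged 6.11 ± 0.21 under JQ1 and 5.52 ± 0.14 under DMSO in MHH-CALL4 and rose by 0.59 (adjusted p = 0.011), at levels below the median of all genes.

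Among 25 measured regulators of the pathway, 6 rose and 5 fell in MUTZ-5, and 8 rose and 7 fell in MHH-CALL4. In these lines 22.0% and 28.5% of all genes were called, 9.06% and 11.0% higher and 13.0% and 17.5% lower. The count lower was 3 to 5 in MUTZ-5 and 4 to 7 in MHH-CALL4 over the 20 alternatives, and the count higher in MHH-CALL4 was 5 to 10. MYC, which activates many glycolysis genes, read 11.35, 11.29 and 11.34 under JQ1 in MUTZ-5, against 12.65, 12.59 and 12.70 under DMSO. It read 10.51, 10.50 and 10.37 under JQ1 in MHH-CALL4, against 12.56, 12.48 and 12.50 under DMSO. MYC fell by 1.32 in MUTZ-5 (limma adjusted p = 5.3e-08) and changed by -2.05 in MHH-CALL4 (adjusted p = 8.6e-10), and these effects differed by 0.73 (adjusted p = 0.0011). MXD1, a repressor that competes with MYC for MAX, rose by 1.19 (adjusted p = 1.7e-05) and 1.32 (adjusted p = 4.5e-06). PPRC1, a coactivator of the PGC-1 family, fell in both lines, with log2 differences of -1.46 (adjusted p = 5.9e-08) and -1.45 (adjusted p = 2.8e-08). TXNIP, which promotes removal of GLUT1 from the cell surface, rose by 0.41 in MUTZ-5 (adjusted p = 0.0061) and 0.65 in MHH-CALL4 (adjusted p = 0.00017).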

How the data were processed

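Total RNA of 12 samples was hybridised to Affymetrix exon arrays. The deposited values are log2 levels that the authors made with RMA in Affymetrix Expression Console, per the labels and the submitters' processing notes; its version, the genome build and which arrays were normalized together are not given in the sources used here. Each array was deposited as core (22011 clusters) and extended (133672) summaries of the same scan, which count as 1 replicate. No detection calls come with the files.

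Of the core clusters, 14432 carried 1 gene symbol and were used, 2408 carried several and 5171 were not in the annotation. For 197 genes with more than 1 cluster the highest mean was taken, giving 14232 genes. Symbols were updated through RefSeq gene IDs (19907 clusters matched, 0 core symbols changed). One mean per group was fitted to all 12 arrays with limma 3.58.1 in R 4.3.3, without a filter on low values. All tests were two-sided. Isozyme ratios were tested by exact permutation. The number of arrays limits precision.

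The members and lists were chosen with earlier results of these data known. All members are named. Every array's value is given for members called under JQ1 with an absolute log2 difference of at least 0.5 in a line, and for MYC; of each other list, up to 4 called genes with the largest differences are named. RAG1 was also named for its level, and BLNK and RAG1 as the increases of their list. SLC2A5 array values were added after they were seen. The 20 alternatives were extended summaries, median centring, cyclic loess, only genes at or above the median level, a replicate block, trend and robust variance, means over clusters, only 6 arrays of a line, and each array left out.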

Additional observations from a re-analysis of the deposited data

How the results depend on the processing

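The counts of members lower under JQ1 were 7 to 9 in MUTZ-5 and 9 to 10 in MHH-CALL4 over all alternatives, with 9 and 10 as reported. The count higher in MUTZ-5 (3) was 6 after median centring, 5 with cyclic loess, 5 when genes below the median level were left out, and 2 to 5 with 1 array left out (5 without DMSO replicate 3). The count of effects lower in MUTZ-5 than in MHH-CALL4 (0) was 0 to 1 with 1 array left out. Under DMSO, the count lower in MUTZ-5 (3) was 5 after median centring, 6 with cyclic loess, and 3 to 6 with 1 array left out (6 without DMSO replicate 3 of MUTZ-5). ENO3 over ENO1, lower in MUTZ-5 than in MHH-CALL4 by 0.21 (log2 difference -0.21), was 0.038 with extended summaries (adjusted p = 0.625). The cause of these shifts was not tested. Of calls on members, 9 of 12 in MUTZ-5, 12 of 14 in MHH-CALL4 and 7 of 7 between the lines held under every alternative; ENO2, LDHA and LDHB in MUTZ-5 and LDHA and SLC2A1 in MHH-CALL4 did not. Of 560 counts of called genes in the other lists under the alternatives, 63 moved by over 1.5 times, 23 of them without an array left out. Median centring moved the share of decreases among all called genes to 48.5% from 58.9% in MUTZ-5 and to 51.5% from 61.5% in MHH-CALL4; leaving out DMSO replicate 3 gave 47.3% in MUTZ-5.

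With a replicate block, 2 members rose and 7 fell in MUTZ-5 and 4 rose and 9 fell in MHH-CALL4; ENO2 (adjusted p = 0.0561), LDHA (0.05) and LDHB (0.104) in MUTZ-5 and LDHA in MHH-CALL4 (0.0748) lost their calls. Same-numbered samples correlated in their deviations at 0.299, 0.0703 and 0.229 in MHH-CALL4 and at -0.174, -0.213 and -0.436 in MUTZ-5. Differently numbered samples correlated at -0.304 to 0.0999 in MHH-CALL4 and at -0.318 to 0.39 in MUTZ-5. The numbers were not taken to pair samples because the labels do not say that they do. Signal over background is not known. This limits the members that averaged below the median of all genes, which were HKDC1, PFKFB1, PFKFB2, PFKFB4, TPI1, PGAM2 and ENO3.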

Other observations

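In the pentose phosphate pathway, which branches from glucose 6-phosphate to make NADPH and ribose, 8 genes were measured. In MUTZ-5, 2 rose and 1 fell under JQ1, and in MHH-CALL4 0 rose and 4 fell. Of all genes, 9.06% rose and 13.0% fell in MUTZ-5, and 11.0% rose and 17.5% fell in MHH-CALL4. Over the 20 alternatives the MHH-CALL4 decreases numbered 2 to 4 and the MUTZ-5 increases 1 to 2. RPIA, the ribose 5-phosphate isomerase, averaged 8.12 ± 0.059 under JQ1 and 8.72 ± 0.29 under DMSO in MUTZ-5, and 8.04 ± 0.30 and 8.89 ± 0.16 in MHH-CALL4 (SD, n = 3 each). It fell by 0.61 in MUTZ-5 (limma adjusted p = 0.012) and by 0.85 in MHH-CALL4 (adjusted p = 0.0011). RPE, the epimerase of the same branch, differed by -0.22 in MUTZ-5 and fell by 0.44 in MHH-CALL4 (adjusted p = 0.035). PGD, which makes NADPH, rose by 0.30 in MUTZ-5 (adjusted p = 0.016) and differed by 0.06 in MHH-CALL4. H6PD, the enzyme of the endoplasmic reticulum, rose by 0.57 in MUTZ-5 (adjusted p = 0.0023) and differed by 0.11 in MHH-CALL4. No gene of this list was called for a difference of effects between the lines.

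Of 18 measured hypoxia target genes outside the pathway, 6 rose and 3 fell in each line. Among all genes, 9.06% rose and 13.0% fell in MUTZ-5, and 11.0% rose and 17.5% fell in MHH-CALL4. The 3 decreases are near those shares. NDRG1, a stress-induced gene, averaged 10.70 ± 0.041 under JQ1 and 9.55 ± 0.14 under DMSO in MUTZ-5, and 10.87 ± 0.043 and 9.83 ± 0.096 in MHH-CALL4. It rose by 1.15 (limma adjusted p = 5.3e-07) and 1.04 (adjusted p = 9.8e-07). KDM3A, a histone demethylase, rose by 0.55 in MUTZ-5 (adjusted p = 0.01) and differed by 0.28 in MHH-CALL4. ERO1A, an oxidase of protein folding, fell by 0.53 in MUTZ-5 (adjusted p = 0.00026) and 0.55 in MHH-CALL4 (adjusted p = 0.00015), and DDIT4, an inhibitor of mTORC1 signalling, by 0.48 (adjusted p = 0.003) and 0.66 (adjusted p = 0.00022).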
